A study of Mus musculus with 384 samples.

Results

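The voltage-gated calcium channel pore subunits are a family of 10 mouse genes, Cacna1a, Cacna1b, Cacna1c, Cacna1d, Cacna1e, Cacna1f, Cacna1g, Cacna1h, Cacna1i and Cacna1s, and their levels were described here in single retinal cells. The 10 members were taken by name, as a gene family, from the 32813 genes of the deposited tables. No threshold on their values was used, but earlier results of these data were known when they were chosen. The cells came from the retinas of 2 mice at postnatal day 17 that carried Cre recombinase in the Kcng4 gene (the Kcng4-cre allele) together with the Thy1-stop-YFP Line#1 reporter, in which Cre removes a stop in front of a yellow fluorescent protein under a Thy1 promoter. Every cell shared this genotype, and there was no treatment or control genotype. Dissociated cells were sorted by flow cytometry into plates, 96 from each of 4 retinas, and each cell was made into a library by Smart-seq2, which copies transcripts over their length and does not keep their strand. The retinas are named 1la, 1Ra, 2la and 2Ra, in which the number is the mouse and the suffix is not spelled out in the labels.

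Cells were compared in 3 groups that carried exactly 1 of 3 marker genes at 20 TPM or more. TPM, the relative number of transcripts, is a level per transcript length brought to the same total for every cell, so that TPM can be compared between genes. Cells needed at least 3000 genes at an expected count of 1 or more, and 321 of the 383 cells with values met this. Vsx1-only cells, with the homeobox factor Vsx1, numbered 60. Ddit4l-only cells, with the mTOR regulator Ddit4l, numbered 59. Sox6-only cells, with the transcription factor Sox6, numbered 151. A further 33 cells had none of the 3 markers and 18 had several. The cell just inside the threshold and the cell just outside it had 31 and 15.8 TPM of Vsx1, 29 and 16.9 TPM of Ddit4l, and 20.8 and 18.7 TPM of Sox6.

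Each of these genes encodes the large subunit that forms the pore, holds the voltage sensors and admits calcium when the membrane depolarises. They fall into 3 classes. The Cav1 or L-type channels (Cacna1f, Cacna1d, Cacna1c, Cacna1s) open at strong depolarisation and stay open long, the Cav2 channels (Cacna1a, Cacna1b, Cacna1e) carry the P/Q, N and R-type currents that drive release at many fast synapses, and the Cav3 or T-type channels (Cacna1g, Cacna1h, Cacna1i) open near the resting potential and close quickly. Bipolar cells carry signals from photoreceptors to ganglion cells through ribbon synapses, whose sustained release is known to use L-type channels, and T-type currents have been recorded in them as well.

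The marker groups had similar depth, with a median total count of 1072603 in Vsx1-only, 1091485 in Ddit4l-only and 1067453 in Sox6-only cells. Of 12 bipolar cell markers, 10, 9 and 11 were present in most Vsx1-only, Ddit4l-only and Sox6-only cells. Their summed level ranged from 1436 to 10225 TPM per Vsx1-only cell, from 1012 to 9499 TPM per Ddit4l-only cell and from 81.9 to 15238 TPM per Sox6-only cell. Rod markers were present too. At least 1000 TPM of 8 rod markers was found in 19 Vsx1-only, 12 Ddit4l-only and 44 Sox6-only cells, whereas the rod transcription factors Nrl and Nr2e3 had a median of 0 in all 3 groups. Among markers of other cell types, Pde6h of 7 cone markers, Pax6 of 8 amacrine markers and Calb1 and Prox1 of 5 horizontal cell markers were present in most cells of every group, and the summed horizontal markers had a median of 272 TPM in Vsx1-only, 258 TPM in Ddit4l-only and 255 TPM in Sox6-only cells. Of 8 Muller glia markers, 2, 2 and 3 were present in most Vsx1-only, Ddit4l-only and Sox6-only cells. Of 10 ganglion cell markers only Thy1 was, in Sox6-only cells, and of 10 markers of microglia, vessels and pigment epithelium none was in any group. For rod markers, some levels and fits without the cells at 1000 TPM or more are given below. The part of these markers in the levels was not otherwise tested. The mouse is the replicate (n = 2), the cells are not, and each retina filled its own wells, so that retina and wells cannot be told apart.

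Transcripts of the family were led by Cacna1f and Cacna1h in all 3 groups. The summed level of the 10 members was 286 ± 24 TPM in Vsx1-only, 365 ± 44.1 TPM in Ddit4l-only and 412 ± 48.4 TPM in Sox6-only cells (SD over 2 mice). The median cell had 4 of the 10 members at an expected count of 1 or more in the Vsx1-only group and 5 in the Ddit4l-only and Sox6-only groups. Cacna1f was the highest member in 56.7% of Vsx1-only, 33.9% of Ddit4l-only and 62.3% of Sox6-only cells, and Cacna1h in 25%, 40.7% and 25.2% of the same groups.

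**Figure D1:**
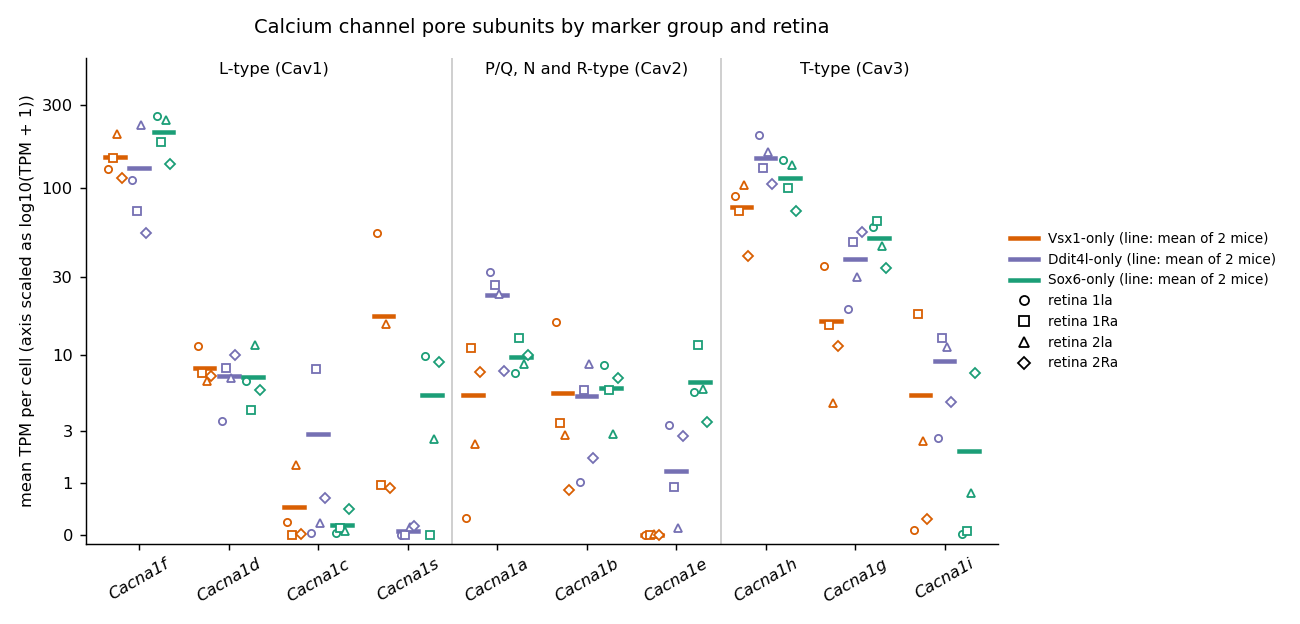
Mean TPM per cell of each pore subunit (vertical axis, scaled as log10(TPM + 1)) in Vsx1-only, Ddit4l-only and Sox6-only cells. Each point is 1 retina and each line the mean of 2 mice. Cacna1f and Cacna1h lie above the other members, and Cacna1e is at 0 or nearly 0 in every Vsx1-only point.

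Cacna1f encodes Cav1.4, the L-type channel of photoreceptor and bipolar cell ribbon synapses, and lies on the X chromosome (mm10, chrX:7607083-7635196, plus strand, 44 merged exons in GENCODE M21). Its mean level in retinas 1la, 1Ra, 2la and 2Ra was 128, 148, 205 and 114 TPM in Vsx1-only cells, 110, 73.5, 233 and 54.7 TPM in Ddit4l-only cells and 262, 184, 246 and 138 TPM in Sox6-only cells. The retinas of the groups overlapped, and Sox6-only cells were the highest group within each retina. Single cells ran from 0 through a median of 129 to 504 TPM in the Vsx1-only group, through 69.8 to 640 TPM in the Ddit4l-only group and through 162 to 821 TPM in the Sox6-only group. An expected count of 1 or more was present in 98.3% of Vsx1-only, 88.1% of Ddit4l-only and 99.3% of Sox6-only cells. Cacna1f is itself a photoreceptor gene, and without the cells with 1000 TPM or more of rod markers its level was 172, 133 and 220 TPM in the Vsx1-only, Ddit4l-only and Sox6-only groups. Across cells of a group its rank correlation with the summed rod markers was -0.16, 0.03 and 0.00 in that order, given as a description over cells that share retinas. The 251 bases that end at the RefSeq start of Cacna1f (GRCm38.p6, chrX:7606853-7607103, plus strand) are shown because this gene led the family in 2 of the 3 groups, with the first transcribed base in capitals.
Cacna1f upstream: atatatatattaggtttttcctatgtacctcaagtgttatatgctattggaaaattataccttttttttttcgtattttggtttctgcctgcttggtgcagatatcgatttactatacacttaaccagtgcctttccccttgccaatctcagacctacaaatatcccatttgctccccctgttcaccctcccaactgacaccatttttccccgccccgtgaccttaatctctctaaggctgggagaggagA
Short motifs were searched on both strands of the 300 bases from 250 before to 50 after that start: TAATCC, the core bound by CRX and OTX factors, AACAAT, a SOX core, TAATTA, a homeobox core, and TATAAA, the TATA box. They occurred in 7.06%, 10.7%, 5.29% and 13.6% of all 32851 RefSeq promoters of that length, and the Cacna1f window held none of these letters.

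The other L-type members were far lower per length. Cacna1d, which encodes Cav1.3, the L-type channel of hair cell ribbon synapses and of pacemaking cells, was at 8.17 ± 1.69 TPM in Vsx1-only, 7.31 ± 1.05 TPM in Ddit4l-only and 7.18 ± 2.26 TPM in Sox6-only cells, a spread within that of the mice. Counts were found in 58.3%, 55.9% and 55.6% of their cells, so that Cacna1f and Cacna1d were both present in 56.7%, 52.5% and 55.6%. Its exons share 589 bases with those of Chdh on the other strand, and reads of the 2 genes in that stretch cannot be told apart. Cacna1c, which encodes Cav1.2 of heart and brain, was at 0.46 ± 0.52, 2.83 ± 3.53 and 0.15 ± 0.12 TPM and was present in 4 Vsx1-only, 11 Ddit4l-only and 14 Sox6-only cells. Its Ddit4l-only level rests on retina 1Ra, at 8.12 TPM against 0.03, 0.18 and 0.63 TPM in retinas 1la, 2la and 2Ra, and was 0.18 TPM without retina 1Ra.

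Cacna1s encodes Cav1.1, the voltage sensor of skeletal muscle. It stood at 54.1, 0.95, 15.6 and 0.87 TPM in Vsx1-only cells of retinas 1la, 1Ra, 2la and 2Ra, at 0, 0, 0.11 and 0.12 TPM in Ddit4l-only cells and at 9.82, 0, 2.6 and 8.98 TPM in Sox6-only cells. All 4 Vsx1-only values lay above all 4 Ddit4l-only values, while Vsx1-only and Sox6-only retinas overlapped. Few cells made up these levels. Counts were found in 9 of 60 Vsx1-only, 2 of 59 Ddit4l-only and 15 of 151 Sox6-only cells, and the 3 highest cells held 84.2% of the Vsx1-only total. Its exons share 1309 bases with the antisense gene Gm37759, and counts in an unstranded library do not say which of the 2 was transcribed. The 251 bases that end at its RefSeq start (GRCm38.p6, chr1:136052561-136052811, plus strand) are shown because they were 1 of the 2 sets of promoter bases among the members to hold TAATCC, here in capitals together with the first transcribed base.
Cacna1s upstream: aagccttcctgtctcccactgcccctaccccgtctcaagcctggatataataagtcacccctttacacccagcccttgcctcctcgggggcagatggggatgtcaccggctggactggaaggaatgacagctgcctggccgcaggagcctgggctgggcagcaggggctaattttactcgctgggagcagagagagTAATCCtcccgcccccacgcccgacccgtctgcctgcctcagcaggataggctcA
Promoter entries existed for 7 of the 10 members, and the match is a description of letters, not of a bound site.

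Among the T-type members, Cacna1h, which encodes Cav3.2, was the most evenly spread. It was present in 96.7% of Vsx1-only, 98.3% of Ddit4l-only and 97.4% of Sox6-only cells. In retinas 1la, 1Ra, 2la and 2Ra its mean was 89.2, 72.6, 103 and 39.7 TPM in Vsx1-only cells, 201, 129, 160 and 104 TPM in Ddit4l-only cells and 144, 100, 135 and 72.9 TPM in Sox6-only cells. The order of the groups was the same within each of the 4 retinas, with Ddit4l-only highest and Vsx1-only lowest. The Vsx1-only values narrowly did not overlap the Ddit4l-only values (at most 103 against at least 104 TPM), as for 3.62% of genes. They did overlap by the CPM of the retina sums. In Ddit4l-only cells Cacna1h at 148 ± 8.95 TPM and Cacna1f at 130 ± 61.6 TPM did not differ beyond their spread over mice, whereas Cacna1f was the higher of the pair in Vsx1-only cells (151 ± 17.4 TPM against 77.2 ± 4.58 TPM) and in Sox6-only cells (210 ± 21.8 TPM against 114 ± 12.3 TPM). In Ddit4l-only cells Cacna1h was the higher of the pair in retinas 1la, 1Ra and 2Ra and Cacna1f in retina 2la, and without retina 2la they stood at 129 and 70.4 TPM. Both genes were present together in 95%, 88.1% and 96.7% of Vsx1-only, Ddit4l-only and Sox6-only cells, and their levels were hardly ranked alike across cells (Spearman's rho 0.16, 0.19 and 0.00 over 60, 59 and 151 cells, as a description).

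Cacna1g, which encodes Cav3.1, the T-type channel of thalamic burst firing, ranged from 0 to 201 TPM over Vsx1-only cells (median 0), to 226 TPM over Ddit4l-only cells (median 11.5 TPM) and to 446 TPM over Sox6-only cells (median 3.5 TPM). Its mean was 34.6, 15.4, 4.78 and 11.3 TPM in Vsx1-only cells of retinas 1la, 1Ra, 2la and 2Ra, 19.2, 48.2, 30 and 54.7 TPM in Ddit4l-only cells and 58.5, 63.9, 45.5 and 33.7 TPM in Sox6-only cells. Vsx1-only cells were below Sox6-only cells in all 4 retinas, although their ranges overlapped at 34.6 and 33.7 TPM. It was present in 26.7% of Vsx1-only, 64.4% of Ddit4l-only and 60.3% of Sox6-only cells, and in 20%, 54.2% and 53.6% once each cell was thinned to 200000 counts. Cacna1i, which encodes Cav3.3, was at 5.45 ± 5.64 TPM in Vsx1-only, 9.13 ± 0.11 TPM in Ddit4l-only and 2.04 ± 2.84 TPM in Sox6-only cells, with 1 cell holding 89.1% of the Vsx1-only total. Cells with it made up 13.3%, 32.2% and 9.27% of the 3 groups.

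**Figure D2:**
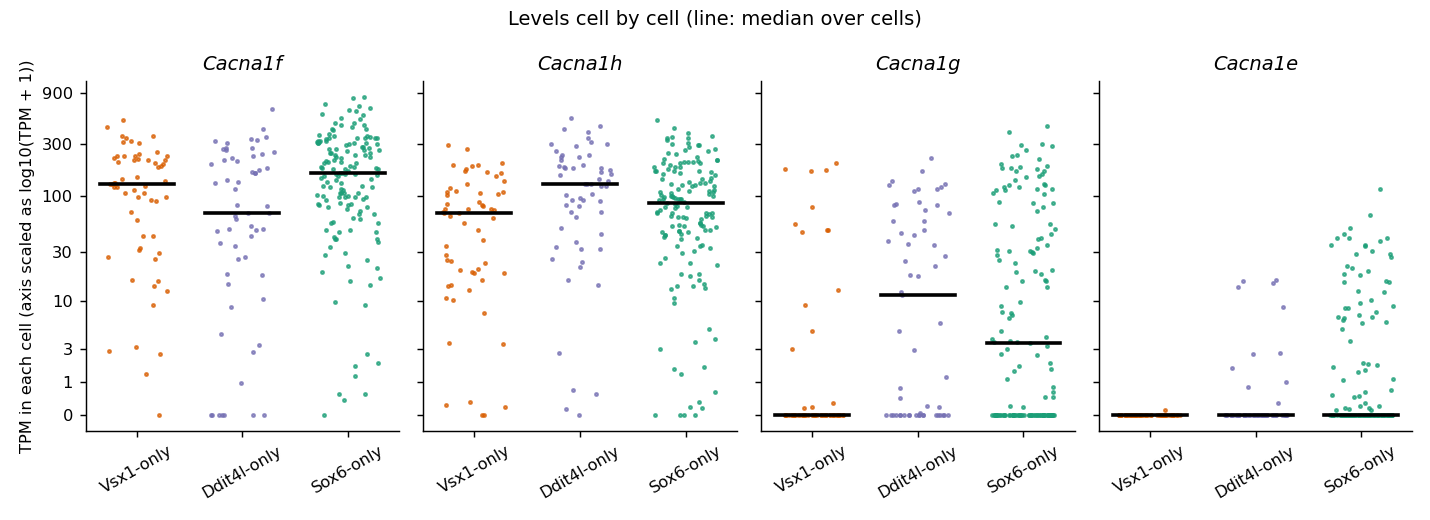
TPM of Cacna1f, Cacna1h, Cacna1g and Cacna1e in each of 60 Vsx1-only, 59 Ddit4l-only and 151 Sox6-only cells (points; vertical axis scaled as log10(TPM + 1); line, median over cells). Cacna1f and Cacna1h are present in nearly all cells, the median of Cacna1g is 0, 11.5 and 3.5 TPM in Vsx1-only, Ddit4l-only and Sox6-only cells, and 1 Vsx1-only cell holds Cacna1e, at 0.10 TPM.

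The Cav2 members were low on the TPM scale, and Cacna1e was the member whose 4 retinas did not overlap in any of the 3 comparisons. Cacna1e, which encodes the R-type channel Cav2.3, had 1 count in all 60 Vsx1-only cells together, against 788 counts in 59 Ddit4l-only cells and 8050 counts in 151 Sox6-only cells. By retina (1la, 1Ra, 2la, 2Ra) it stood at 0, 0, 0.01 and 0 TPM in Vsx1-only cells, at 3.31, 0.88, 0.09 and 2.74 TPM in Ddit4l-only cells and at 5.68, 11.5, 5.94 and 3.49 TPM in Sox6-only cells. No range of 4 retinas overlapped another. It was present in 1.67% of Vsx1-only cells (95% exact Clopper-Pearson interval 0.04% to 8.94%), 18.6% of Ddit4l-only cells (9.69% to 30.9%) and 40.4% of Sox6-only cells (32.5% to 48.7%), and these intervals cover counting error only. After thinning to 200000 counts the shares were 0%, 18.6% and 36.4%. On the scale of CPM the ratio of Vsx1-only to Sox6-only cells was 0.00032 (counting interval 8.03e-06 to 0.00177). That of Vsx1-only to Ddit4l-only cells was 0.00128 (3.23e-05 to 0.00713). Both counting intervals treat reads as independent and leave out the spread between cells and mice.

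Cacna1a, which encodes the P/Q-type channel Cav2.1 of most central synapses, was at 5.39 ± 0.81 TPM in Vsx1-only, 23.4 ± 7.08 TPM in Ddit4l-only and 9.69 ± 0.55 TPM in Sox6-only cells. By retina the values were 0.25, 11, 2.36 and 7.68 TPM in Vsx1-only cells, 31.8, 26.5, 23.6 and 7.84 TPM in Ddit4l-only cells and 7.61, 12.8, 8.75 and 9.91 TPM in Sox6-only cells. Vsx1-only cells were below Ddit4l-only cells within each retina. The ranges of mean TPM overlapped through Vsx1-only cells of retina 1Ra (11 TPM) and Ddit4l-only cells of retina 2Ra (7.84 TPM). In retina 1Ra 1 cell at 198 TPM held 60.3% of the Vsx1-only total. It was present in 20%, 66.1% and 43.7% of Vsx1-only, Ddit4l-only and Sox6-only cells. Cacna1b, which encodes the N-type channel Cav2.2, was at 5.59 ± 5.26, 5.30 ± 1.58 and 6.05 ± 1.75 TPM and was present in 31.7%, 33.9% and 34.4% of cells, with no difference beyond the spread over mice. Exons of Cacna1a share 435 bases with the antisense gene Gm16183 and those of Cacna1h 158 bases with Tpsg1, whereas Cacna1b, Cacna1c, Cacna1e, Cacna1f, Cacna1g and Cacna1i share no exon base with another annotated gene.

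**Figure D3:**
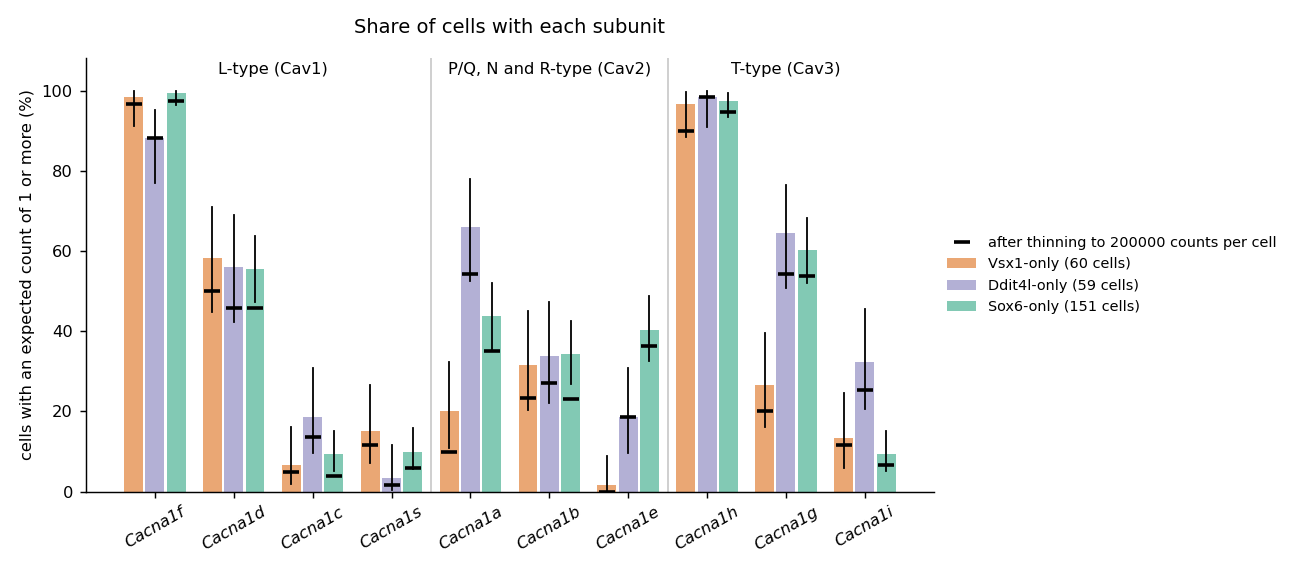
Share of cells in % with an expected count of 1 or more of each pore subunit in Vsx1-only, Ddit4l-only and Sox6-only cells (bars; thin lines, 95% Clopper-Pearson intervals; thick dashes, the share after thinning each cell to 200000 counts). In Vsx1-only cells the bars stand at 1.67% for Cacna1e, 20% for Cacna1a and 26.7% for Cacna1g, and in Sox6-only cells at 40.4%, 43.7% and 60.3%.

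Ordered by TPM, Vsx1-only cells had Cacna1f, Cacna1h, Cacna1s, Cacna1g, Cacna1d, Cacna1b, Cacna1i, Cacna1a, Cacna1c and Cacna1e. In that order Cacna1f and Cacna1h stood apart from the next, and the neighbours from Cacna1s to Cacna1a did not differ beyond their spread over 2 mice. Ddit4l-only cells had Cacna1h, Cacna1f, Cacna1g, Cacna1a, Cacna1i, Cacna1d, Cacna1b, Cacna1c, Cacna1e and Cacna1s, with Cacna1h and Cacna1f within their spread over mice. Sox6-only cells had Cacna1f, Cacna1h, Cacna1g, Cacna1a, Cacna1d, Cacna1e, Cacna1b, Cacna1s, Cacna1i and Cacna1c, where the first 4 were each separated from the next by more than either SD and the neighbours from Cacna1d to Cacna1s were not. In the 33 cells with none of the 3 markers Cacna1f was at 102 ± 7.34 TPM, Cacna1h at 52.2 ± 30.7 TPM and Cacna1g at 48.8 ± 31.6 TPM.

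By class, L-type members made up 62 ± 6.61% of the family's TPM in Vsx1-only, 37.6 ± 11.7% in Ddit4l-only and 54.1 ± 1.75% in Sox6-only cells. T-type members made up 34.3 ± 4.8%, 54 ± 9% and 40.5 ± 1.19%, and the Cav2 members 3.76 ± 1.80%, 8.38 ± 2.66% and 5.40 ± 0.55%. By retina the T-type share ran from 28.2% to 38.2% in Vsx1-only cells and from 42.5% to 67.8% in Ddit4l-only cells, with no overlap. It ran from 39.6% to 42.9% in Sox6-only cells, which overlapped the Ddit4l-only range through retina 2la alone. These shares were not tested.

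**Figure D4:**
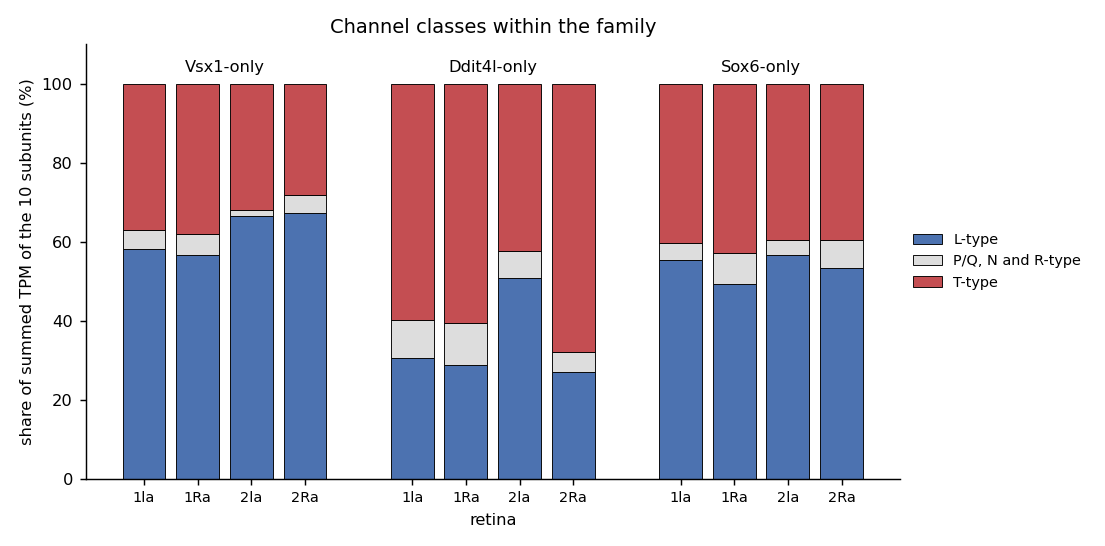
Share in % of the summed TPM of the 10 pore subunits held by L-type, Cav2 (P/Q, N and R-type) and T-type members in each retina of the Vsx1-only, Ddit4l-only and Sox6-only cells. T-type members hold 42.5% to 67.8% in Ddit4l-only cells and 28.2% to 38.2% in Vsx1-only cells.

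The first comparison was of Vsx1-only with Sox6-only cells, with counts summed per mouse, edgeR's quasi-likelihood test and the mouse as a block. All 10 members passed the filter on low counts in this fit. No member was called at a Benjamini-Hochberg adjusted p under 0.05 with at least a 2-fold change, and neither was any other gene (0.0% of 16646 tested), though 1401 genes, 3 members among them, had an unadjusted p under 0.05. Those 3 were Cacna1e (fitted log2 fold change -11.41 ± 1.21, adjusted p = 0.166), Cacna1g (-2.40 ± 0.40, adjusted p = 0.307) and Cacna1h (-0.61 ± 0.14, adjusted p = 0.450). The fitted size for Cacna1e, and so its ±, depends on the prior count. For edgeR, ± is an approximate standard error worked back from the fold change and the test statistic. For DESeq2 it is the standard error of that fit. The median over the members was -0.59, against -0.05 over all genes. When counts were summed by retina and the retina was the block, edgeR called 2 members lower in Vsx1-only cells, where 0.476% of 14508 genes were called lower: Cacna1e (adjusted p = 0.0195) and Cacna1g (-2.41 ± 0.43, adjusted p = 0.0483). A further 0.283% of genes and no member were called higher. This fit treats both retinas of a mouse as replicates, and its p-values measure the spread between retinas. Leaving out any 1 retina ended both calls, with log2 fold changes of -13.25 to -10.70 for Cacna1e (adjusted p 0.122 to 0.233) and of -2.59 to -2.22 for Cacna1g (0.0736 to 0.353). Without the cells with 1000 TPM or more of rod markers the retina sums still called Cacna1e (adjusted p = 0.0296) and not Cacna1g (-2.43 ± 0.48, adjusted p = 0.0756). DESeq2 on the mouse sums also called these 2 members lower, where it called 5.79% of 14709 genes, 2.4% higher and 3.39% lower. By the ranges of mean TPM over the 4 retinas, Cacna1e was the 1 member whose groups did not overlap. In this way 4.22% of 15063 genes were lower and 3.33% higher. By the CPM of the retina sums Cacna1g (at most 23.8 against at least 45.7 CPM) and Cacna1a (at most 13.4 against at least 14.1 CPM) did not overlap either. The share over all genes was not taken for CPM.

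Between Ddit4l-only and Sox6-only cells no member was called in the mouse sums (0.0% of 16646 genes, with 1327 genes at an unadjusted p under 0.05) or in the retina sums (0.496% of 14508 genes, 0.352% lower and 0.145% higher). The members with an unadjusted p under 0.05 in the mouse sums were Cacna1e (log2 fold change -2.05 ± 0.75, adjusted p = 0.620 by edgeR) and Cacna1s (adjusted p = 0.505). Cacna1s had 3 counts in Ddit4l-only cells against 1013 in Sox6-only cells (ratio of CPM 0.00752, counting interval 0.00155 to 0.0220). These came from 2 of 59 and 15 of 151 cells, and the 3 highest Sox6-only cells held 77.2% of that group's TPM. The counting interval treats reads as independent and leaves out the spread between cells and mice. Cacna1h was at 0.27 ± 0.14 with an adjusted p of 0.725, and Cacna1f at -0.62 ± 0.33 with the same adjusted p of 0.725. The median over the members was -0.21, against -0.08 over all genes. DESeq2 called 3 members, where it called 5.17% of genes, 2.07% higher and 3.09% lower: Cacna1e (adjusted p = 0.0251) and Cacna1s (1.06e-05) lower and Cacna1i (3.83 ± 1.26, adjusted p = 0.0443) higher in Ddit4l-only cells. By the ranges of mean TPM over the 4 retinas Cacna1e alone did not overlap, with 3.98% of genes lower in this way and 2.83% higher.

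The last comparison of marker groups was of Vsx1-only with Ddit4l-only cells. In the mouse sums no member was among the 7 genes called (0.0421% of 16646, all lower in Vsx1-only cells), while 2094 genes and 5 members had an unadjusted p under 0.05. These were Cacna1e (edgeR adjusted p = 0.133), Cacna1g (log2 fold change -2.04 ± 0.39, adjusted p = 0.221), Cacna1h (-0.88 ± 0.14, adjusted p = 0.195), Cacna1a (-2.70 ± 0.76, adjusted p = 0.310) and Cacna1s, with 1658 counts in Vsx1-only cells and 3 in Ddit4l-only cells (adjusted p = 0.220). The members' median was -1.46, against 0.01 over all genes. The retina sums called 2 members lower, where 0.986% of genes were called lower and 1.23% higher, namely Cacna1e (adjusted p = 0.0298) and Cacna1g (-2.14 ± 0.43, adjusted p = 0.0442). Cacna1h passed the p there but not the 2-fold limit (-0.76 ± 0.14, adjusted p = 0.0319). Leaving out any 1 retina ended both calls, with log2 fold changes of -11.79 to -8.14 for Cacna1e (adjusted p 0.104 to 0.163) and of -2.49 to -1.73 for Cacna1g (0.114 to 0.219). Without the cells rich in rod RNA neither was called, at -7.89 ± 1.67 for Cacna1e (adjusted p = 0.0606) and -2.27 ± 0.49 for Cacna1g (adjusted p = 0.061). DESeq2 called 4 members (11% of genes, 5.53% higher and 5.44% lower), Cacna1a (adjusted p = 0.00428), Cacna1e and Cacna1g lower and Cacna1s higher. By mean TPM over the 4 retinas Cacna1e and Cacna1h were lower without overlap, as were 3.62% of genes. Cacna1s was higher without overlap, as were 4.18%. By the CPM of the retina sums Cacna1h overlapped (297 CPM in Vsx1-only cells of retina 2la, 264 CPM in Ddit4l-only cells of retina 2Ra). On that scale Cacna1g (at most 23.8 against at least 45.7 CPM) and Cacna1a (at most 13.4 against at least 15.8 CPM) did not overlap. The share over all genes was not taken for CPM. The 3 comparisons share their groups and are not independent of each other.

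Ra and la retinas of the same mouse were compared in sums over the 3 marker groups, without a block. No member was called (0.0% of 17319 genes, with 1460 at an unadjusted p under 0.05). These 2 members had an unadjusted p under 0.05, Cacna1f (log2 fold change -0.74 ± 0.23, edgeR adjusted p = 0.511) and Cacna1h (-0.57 ± 0.19, adjusted p = 0.548). With the mouse as a block edgeR gave -0.74 ± 0.25 for Cacna1f (adjusted p = 0.656) and -0.58 ± 0.20 for Cacna1h (adjusted p = 0.654). By mean TPM Cacna1h was lower in the Ra retina in all 6 pairs of a mouse and a marker group, as were 5.27% of 15063 genes. Cacna1f was lower by mean TPM in 5 of the 6, a looser count for which the share over all genes was not taken. By CPM of the retina sums, Cacna1h in Vsx1-only cells of mouse 1 was higher in Ra (251 CPM) than in la (244 CPM). In the cells of the 3 groups the median share of mitochondrial counts was 4.15% in retina 1Ra against 2.05% in 1la and 4.85% in 2Ra against 2.14% in 2la. Their median total count was 748007 in retina 1Ra against 1286601 in 1la and 1046909 in 2Ra against 1190911 in 2la. The part of either in these levels was not tested.

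**Figure D5:**
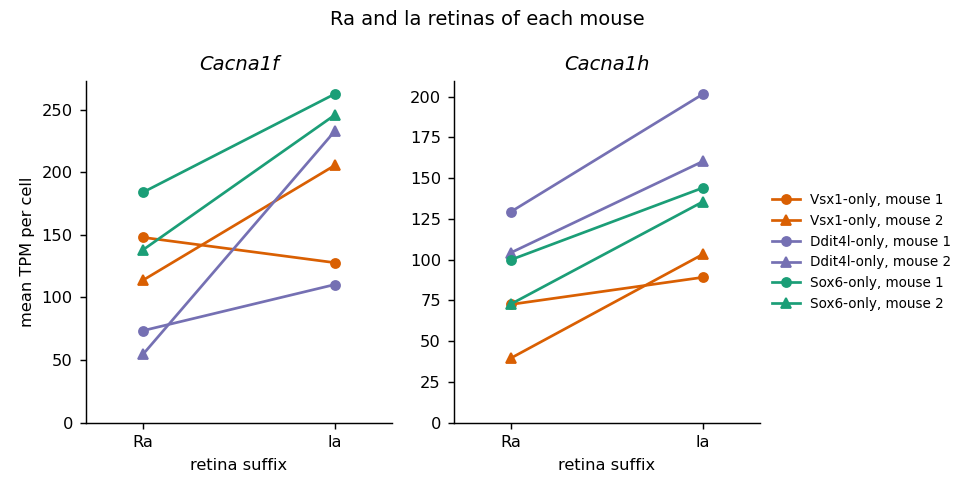
Mean TPM per cell of Cacna1f and Cacna1h in the Ra and la retina of each mouse (points joined by a line), for Vsx1-only, Ddit4l-only and Sox6-only cells. All 6 lines of Cacna1h and 5 of the 6 lines of Cacna1f are lower at Ra.

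The genes that work with the pore were followed through 5 lists. In the mouse sums edgeR called no gene of any list in any of the 3 comparisons. Of 19 accessory subunits, which set the trafficking and gating of the pore, 16 were tested in mouse sums and 15 in retina sums, and none was called in either. Cacna2d4, the alpha2delta subunit of ribbon synapses, was at 303 ± 29 TPM in Vsx1-only, 348 ± 20.8 TPM in Ddit4l-only and 318 ± 41.7 TPM in Sox6-only cells, and Cacnb2, a beta subunit, at 103 ± 0.44, 86.7 ± 23.1 and 88.8 ± 13.2 TPM. Cacna2d3 stood at 128 ± 0.63 TPM in Vsx1-only cells against 7.55 ± 0.72 TPM in Ddit4l-only and 12.5 ± 4.07 TPM in Sox6-only cells. It had no call by edgeR in either kind of sum and a call by DESeq2 in both comparisons. In each of these DESeq2 also called Cacng5 and Cacna2d2, and of the called subunits 2 were higher and 1 lower in Vsx1-only cells. It called 5.79% of all genes against Sox6-only and 11% against Ddit4l-only cells.

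In the retina sums, where edgeR called 0.758% of 14508 genes between Vsx1-only and Sox6-only cells, 0.496% between Ddit4l-only and Sox6-only cells and 2.21% between Vsx1-only and Ddit4l-only cells, the other 4 lists held a few calls. Of 33 active zone partners tested, 1 rose and 1 fell in Vsx1-only against Sox6-only cells, 1 fell in Ddit4l-only against Sox6-only cells, and 2 rose and 1 fell in Vsx1-only against Ddit4l-only cells. Snap25, a SNARE protein of vesicle fusion, was at 2172 ± 144 TPM in Vsx1-only cells against 679 ± 7.12 TPM in Ddit4l-only and 780 ± 9.95 TPM in Sox6-only cells (adjusted p = 0.00023 and 0.00103). Rims4, of the RIM family of release proteins, fell in Vsx1-only cells (0.33 ± 0.23 TPM) against Ddit4l-only (8.70 ± 0.22 TPM, adjusted p = 0.0354) and Sox6-only cells (22.2 ± 6.34 TPM, adjusted p = 0.0279). Elfn2, a synaptic adhesion protein, fell in Ddit4l-only cells (0.10 ± 0.13 TPM) against Sox6-only cells (12 ± 3.71 TPM, adjusted p = 0.0360) and was higher in Vsx1-only cells (12.1 ± 5.37 TPM) than in Ddit4l-only cells (adjusted p = 0.0191).

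Of 19 channel calcium sensors tested, 1 fell in Vsx1-only against Sox6-only cells, 1 fell in Ddit4l-only against Sox6-only cells, and 2 rose and 1 fell in Vsx1-only against Ddit4l-only cells. Cabp5, which binds calcium in bipolar cell terminals, was at 43.8 ± 42 TPM in Vsx1-only cells, 1803 ± 503 TPM in Ddit4l-only cells (adjusted p = 0.0248) and 1597 ± 23.5 TPM in Sox6-only cells (adjusted p = 0.0422). Cabp2, a relative that modulates L-type channels in hair cells, was at 284 ± 121 TPM in Vsx1-only cells against 1.08 ± 0.76 TPM in Ddit4l-only cells (adjusted p = 0.0477). Camk2b, a calmodulin kinase, fell in Ddit4l-only (90.6 ± 17.4 TPM) against Sox6-only cells (244 ± 54 TPM, adjusted p = 0.0225). It rose in Vsx1-only (178 ± 51.6 TPM) against Ddit4l-only cells (edgeR adjusted p = 0.0320). Of 11 calcium-gated effectors tested, 1 fell in Ddit4l-only against Sox6-only cells and 3 rose in Vsx1-only against Ddit4l-only cells. Kcnma1, the large-conductance potassium channel opened by calcium and voltage, was at 597 ± 128 TPM in Vsx1-only cells against 20.3 ± 17 TPM in Ddit4l-only cells (adjusted p = 0.0319). In Sox6-only cells it was at 198 ± 30.7 TPM, and the retina sums did not call it against them. Best3, a calcium-gated anion channel, was at 111 ± 41.4 TPM in Vsx1-only against 2.81 ± 3.98 TPM in Ddit4l-only cells (adjusted p = 0.0443). Ryr2, which releases calcium from stores, was at 24.8 ± 4.90 against 10.3 ± 0.79 TPM in the same groups (adjusted p = 0.0200). Ryr2 was also the effector that fell in Ddit4l-only against Sox6-only cells (32.2 ± 5.28 TPM in Sox6-only, edgeR adjusted p = 0.0192). Of 12 genes tested for other calcium and leak entry, none was called in Vsx1-only against Sox6-only cells, 1 fell in Ddit4l-only against Sox6-only cells and 1 rose in Vsx1-only against Ddit4l-only cells. Both calls were of Trpm1. Trpm1, the transduction channel of ON bipolar cells, fell in Ddit4l-only (408 ± 105 TPM) against Sox6-only cells (937 ± 192 TPM, adjusted p = 0.0360) and rose in Vsx1-only (743 ± 156 TPM) against Ddit4l-only cells (log2 fold change 1.26 ± 0.25, adjusted p = 0.0445).

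Genes whose level followed a member most closely over the 12 sums of retina and marker group were named among 7128 genes with a mean of 20 CPM or more, as a description. For Cacna1g they were Ldlrad4, Rims4 and Tubb3 (Pearson's r 0.95, 0.95 and 0.93), with 1.09% of the genes above an r of 0.8. For Cacna1f they were Mfn2, Dgkd and Gys1 (r 0.94, 0.88 and 0.87). For Cacna1h they were St18, Plxnb2 and Tbc1d14 (r 0.90, 0.89 and 0.88), and for Cacna1a the pseudogene Rpl10-ps3, Gfod2 and Ubl3 (r 0.92, 0.91 and 0.90). The 12 sums share retinas and depth.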

How the data were processed

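Per the submitters' processing notes, the build was mm10 and the tools were RSEM 1.2.28 and TopHat2 2.0.10, and the annotation is not given in the sources used here. The deposited values are expected counts from RSEM, without normalisation, and TPM by the authors for the same cells. Values existed for 383 of 384 cells, and the cell without them was not analysed here. Levels are means of the deposited TPM per mouse with the SD over 2 mice. For tests, expected counts were rounded, summed per mouse and marker group and fitted with edgeR 4.0.16 (TMM, filterByExpr, quasi-likelihood, the mouse as a block, R 4.3.3). The fit was also run on simulated sums in which only genes with a mean of 20 CPM or more were changed. That run does not say how often changes in sparser members are called. Genes were called at a change of 1 or more in log2, up or down, when the p adjusted after Benjamini and Hochberg was under 0.05. DESeq2 1.42.0 and limma 3.58.1 were alternatives. Same-numbered retinas come from the same mouse, which gives the pairing. The p-values measure only the spread between these samples. Exon overlaps come from GENCODE M21, sequences from RefSeq. All 10 members were named, with up to 4 called genes per list and comparison and the 3 genes nearest to each member present in at least 50% of the cells of some group, except that those nearest to Cacna1d are not reported here. The other accessory subunits given were chosen after their values were seen. The members and lists were chosen with earlier results of these data known. Log2 counts of the 2 most similar kept cells correlated at 0.758.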

Additional observations from a re-analysis of the deposited data

Results flagged for a closer look

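Among 30 sets of 4 retinas (10 members in 3 marker groups), 5 had 1 retina far from the other three, by a 95% critical value that marks about 1 set in 20 by chance when values are normally distributed, which was not checked for these levels, several of them near 0. Cacna1c was at 1.52 TPM in Vsx1-only cells of retina 2la and at 8.12 TPM in Ddit4l-only cells of retina 1Ra. Cacna1i was at 17.8 TPM in Vsx1-only cells of retina 1Ra and at 7.65 TPM in Sox6-only cells of retina 2Ra. Cacna1e was at 0.00714 TPM in Vsx1-only cells of retina 2la, which is 1 count in 1 cell, with the other three retinas at 0.

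In 2 members both mice had Ra above la in one marker group and Ra below la in another, and the difference was not tested. The check covered 26 pairs of a member and a comparison, with a mean of 5 TPM or more in either marker group. With 2 mice such a pattern can arise by chance, and how often was not tested. For Cacna1a, the log2 ratio of Ra to la (mean TPM + 1) was larger by 3.18 in Vsx1-only than in Ddit4l-only cells, and differed by -1.29 between Ddit4l-only and Sox6-only cells. For Cacna1d, the same ratio was larger by 1.42 in Ddit4l-only than in Sox6-only cells, which is the same as a Ddit4l-only to Sox6-only ratio larger by 1.42 in Ra than in la retinas.

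The 62 wells with fewer than 3000 genes, which entered no comparison, also held transcripts of the family. They summed to 2506 counts of Cacna1f in 16 wells, 904 counts of Cacna1h in 12 wells, 83.8 counts of Cacna1b in 1 well, 15 counts of Cacna1a in 3 wells and 4.97 counts of Cacna1d in 4 wells.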

How the results depend on the processing

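The mouse sums called 0 members in each comparison, and so did sums without a block (no replicate block, 0), DESeq2 size factors, no filter, cell filters at 1500 genes and 50000 counts or 5000 genes, marker thresholds of 5 and 100 TPM, sums without cells rich in rod RNA, limma on log2 TPM + 1 or + 0.1, and sums without any 1 retina (0 to 0). For Vsx1-only over Sox6-only, retina sums with the retina as replicate block called 2, DESeq2's Wald test 2, and retina sums without cells rich in rod RNA 1. For Ddit4l-only over Sox6-only DESeq2 called 3. For Vsx1-only over Ddit4l-only the retina sums called 2 and DESeq2 4. Retina sums without any 1 retina called 0 to 0, and the cause was not tested beyond there being fewer samples. Between Ra and la retinas 0 were called, also with the mouse as replicate block. The sign of a member's log2 fold change turned in 41 of 730 alternative values, none of them called in either fit. Retina sums without cells rich in rod RNA or without a retina, and levels without a retina, were chosen after seeing the data. Leaving out a mouse gave values only. Without 1 retina, the Vsx1-only level of Cacna1s ran from 4.87 to 31.5 TPM and that of Cacna1i from 0.763 to 9.61 TPM. Thinning each cell to 200000 counts left Cacna1e in 0% of Vsx1-only, 18.6% of Ddit4l-only and 36.4% of Sox6-only cells, against 1.67%, 18.6% and 40.4% at full depth.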
